A study of Mus musculus with 16 samples.

Results

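The 10 genes described here, Tnfrsf11a, Itgb3, Nfatc1, Dcstamp, Ocstamp, Tm4sf19, Atp6v0d2, Acp5, Ctsk and Mmp9, are genes of osteoclasts and of the fusion of macrophages into multinucleated cells. They were taken by symbol and matched to the Ensembl identifiers of the deposited tables with GENCODE M21, which makes 10 of 54532 identifiers. Of the 10, 9 reached 1 FPKM (a read density, scaled to exon length and to a total per library) in at least 4 of the 16 libraries. These 9 entered the model across all genes, and Ocstamp did not. Dcstamp reached 1 FPKM in the 8 vehicle libraries only, so it entered the model through the groups in which it is high. The genes were chosen by their measured FPKM differences between these same groups in an earlier look at these data, so their values and differences are given as descriptions; the calls that the model across all genes makes for them are counted below, and they support nothing.

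RNA was sequenced from bone marrow-derived macrophages of FVB/N mice, either wild type or FOXO3-/-, a line meant to lack the forkhead transcription factor FOXO3. The cells received DMSO vehicle or 100 nM dexamethasone, a synthetic glucocorticoid, for the last 24 h, which gives 4 groups of 4 libraries: wild-type vehicle, wild-type dexamethasone, knockout vehicle and knockout dexamethasone. All 16 cultures, the vehicle ones included, were grown from whole flushed marrow in medium with L929-conditioned supernatant, a source of the macrophage growth factor Csf1, and the labels name no RANKL among the additions. The labels do not say which part of Foxo3 is removed, how old the mice were, or whether the libraries of a group came from separate animals, so the errors below reflect how much these libraries vary, and that variation may be technical only.

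Osteoclasts are the bone-resorbing relatives of macrophages. Csf1 keeps their precursors alive, and RANKL binds the receptor RANK, encoded by Tnfrsf11a, which with signals from immunoreceptor adaptors switches on the transcription factor Nfatc1. The precursors then fuse, which needs Dcstamp and Ocstamp, and make the products that dissolve bone: a proton pump, the collagen-cutting protease cathepsin K (Ctsk), the acid phosphatase TRAP (Acp5), the gelatinase Mmp9 and the adhesion receptor that holds the integrin chain Itgb3. Macrophages without RANKL carry part of this set at lower levels and can fuse into giant cells, and glucocorticoids are known to act on both macrophages and bone.

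The libraries were macrophages by their markers and were not mature osteoclasts. All 8 macrophage markers reached 1 FPKM in all 16 libraries, among them Adgre1 (F4/80), whose group means were 615 FPKM in wild-type vehicle, 280 in wild-type dexamethasone, 1282 in knockout vehicle and 705 in knockout dexamethasone. Of 6 mature osteoclast markers outside the 10 genes, only Mmp14 and the widely expressed pump subunit Atp6v1b2 reached 1 FPKM, the calcitonin receptor Calcr was listed at 0 in all but 1 library, Oscar was at most 0.0654 FPKM, and Car2 at most 0.452. The name osteoclast genes therefore stands for the genes and not for the cells. Foxo3 itself stood at 22.9 to 26.4 FPKM in wild-type vehicle and 23.2 to 24.7 in knockout vehicle, at 21.9 to 24.2 in wild-type dexamethasone and 22.9 to 26.4 in knockout dexamethasone, so its whole-gene level was not lower in the libraries labelled FOXO3-/-; these are called knockout here by their label only, and every direction between genotypes rests on that label.

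Reads recovered from the FPKM values came to between 16882542 and 20579168 per library, and 1 FPKM over a 2 kb transcript stood for 32.9 to 39.7 reads. Markers of fibroblasts and stroma set several libraries apart, mainly along the genotype. The sum of 10 such markers was 412, 415, 23.7 and 433.5 FPKM in wild-type vehicle libraries 1 to 4, and 836, 462, 750 and 50.9 FPKM in the wild-type dexamethasone libraries. It was 18.1, 3.59, 2.24 and 306 FPKM in knockout vehicle and 5.68, 5.37, 53.8 and 74.4 FPKM in knockout dexamethasone. Wild-type vehicle library 3, wild-type dexamethasone library 4 and knockout vehicle library 4 thus stood apart from the other libraries of their groups in collagen Col1a1 (6.77, 19.1 and 95.7 FPKM), and results that rest on them are given with and without these 3. Leaving these 3 out took away the overlap of the genotypes in the stromal sum. The lowest wild-type sum was then 412 FPKM, and the highest knockout sum was 74.4 FPKM. Genotype differences and counts without the 3 thus set high against low stromal sums. They are no check on the part of stromal cells, which was not tested. Of the other marker lists, 6 osteoblast markers summed to 0.873 to 17.3 FPKM per library and 5 dendritic cell markers to at most 0.690 FPKM, and of 6 megakaryocyte and platelet markers only Pf4 reached 1 FPKM (sums of 26.9 to 117 FPKM). In bulk RNA, fewer cells of a type and less RNA per cell cannot be told apart.

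Promoter sequences are shown for the pair of genes whose levels differed most between genotypes in vehicle with all 16 libraries, in opposite directions, Acp5 and Tm4sf19, and for Ctsk, whose window, of the 4 at hand, was the only one to hold a glucocorticoid receptor hexamer. RefSeq promoter windows on GRCm38.p6, running from 250 bases before to 50 bases after an annotated start, were matched by symbol for 4 of the 10 genes (Acp5, Ctsk, Tm4sf19 and Tnfrsf11a). Each is printed 5′ to 3′ along the gene, with motif matches in capitals. Acp5 has 3 RefSeq starts, and the most downstream of them is shown (chr9:22130549-22130848, minus strand). Of 6 GENCODE transcripts of Acp5, 1 starts within 100 bases of the start shown and 2 within 100 bases of each of the other starts. The window shown is the only one of Acp5 with a motif match. Tm4sf19 lies at chr16:32400256-32400555 (plus strand) and Ctsk at chr3:95498960-95499259 (plus strand).
Acp5 promoter, downstream start: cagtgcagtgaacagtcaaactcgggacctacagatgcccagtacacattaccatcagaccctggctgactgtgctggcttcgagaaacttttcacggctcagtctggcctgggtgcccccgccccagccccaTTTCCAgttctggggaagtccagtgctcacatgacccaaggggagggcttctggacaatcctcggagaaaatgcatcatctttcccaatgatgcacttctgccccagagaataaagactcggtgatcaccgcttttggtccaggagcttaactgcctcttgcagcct
Tm4sf19 promoter: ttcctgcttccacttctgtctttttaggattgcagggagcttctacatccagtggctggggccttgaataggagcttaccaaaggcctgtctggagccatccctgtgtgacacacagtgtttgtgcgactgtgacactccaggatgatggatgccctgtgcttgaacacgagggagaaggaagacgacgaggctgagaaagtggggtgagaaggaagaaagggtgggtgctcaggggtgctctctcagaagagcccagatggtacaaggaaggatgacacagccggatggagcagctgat
Ctsk promoter: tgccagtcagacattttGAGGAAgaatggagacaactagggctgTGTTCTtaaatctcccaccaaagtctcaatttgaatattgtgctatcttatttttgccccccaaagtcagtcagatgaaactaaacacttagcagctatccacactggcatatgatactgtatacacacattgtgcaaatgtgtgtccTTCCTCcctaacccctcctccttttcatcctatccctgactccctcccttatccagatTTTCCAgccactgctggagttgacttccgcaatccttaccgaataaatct

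A search on both strands covered 7 motifs: the palindromic glucocorticoid receptor site (AGAACA, 3 free bases, TGTTCT) and its single hexamer AGAACA, the FOXO motif GTAAACA, the NFAT core TGGAAA, the AP-1 motif TGANTCA, the E-box CACGTG of MITF and TFE factors, and the PU.1 core GAGGAA. Of 32544 windows of the same length, 0.00922% held the palindromic receptor site, 18.9% the hexamer, 3.66% the FOXO motif, 21.5% NFAT, 7.79% AP-1, 7.17% the E-box and 28.1% PU.1. The Acp5 window above held 1 NFAT match, read on the reverse strand as TTTCCA and starting 117 bases before the start, and the windows at the other Acp5 starts held none of the 7 motifs. The Ctsk window held the receptor hexamer on the reverse strand (TGTTCT, from -206), a PU.1 match on each strand (from -233 and -58) and an NFAT match at the annotated start. The Tm4sf19 window and that of Tnfrsf11a held none of the 7. These matches describe letters in a window, not binding, and gene-level FPKM does not tell which Acp5 start was used.

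The receptor genes come first. Tnfrsf11a encodes RANK, the receptor through which RANKL starts osteoclast formation (chromosome 1, 105780718 to 105847981 on GRCm38, plus strand). Its level was 16.03, 13.5, 20.9 and 13.9 FPKM in wild-type vehicle and 11.7, 9.63, 10.3 and 12.4 FPKM in wild-type dexamethasone. In knockout vehicle it was 25.2, 24.4, 22.6 and 18.9 FPKM, and in knockout dexamethasone 14.1, 14.01, 14.8 and 13.5 FPKM. All 4 dexamethasone libraries lay below all 4 vehicle libraries in each genotype, and the knockout dexamethasone libraries lay above the wild-type ones, while the vehicle groups of the genotypes overlapped through wild-type library 3 and knockout library 4. The log2 difference with dexamethasone, on the log2(FPKM + 1) scale used for every difference below, was -0.49 ± 0.12 (SE) in wild type and -0.65 ± 0.12 in knockout. The knockout stood 0.49 ± 0.12 above wild type in vehicle, 0.70 ± 0.08 above it without the 3 libraries apart and 0.29 ± 0.10 with a stromal score as covariate. Under dexamethasone it stood 0.34 ± 0.12 above, and 0.09 with that covariate. The part of stromal cells in this difference was not tested.

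Itgb3, the integrin β3 chain that anchors osteoclasts to bone (chromosome 11, 104608000 to 104670476), was a low gene throughout. It stood at 1.43, 1.42, 1.95 and 1.62 FPKM in wild-type vehicle and at 1.71, 1.05, 1.38 and 0.391 FPKM in wild-type dexamethasone. In knockout vehicle it was 2.38, 3.38, 1.92 and 1.23 FPKM, against 0.155, 0.345, 0.285 and 0.521 FPKM in knockout dexamethasone, which rest on 16, 39, 32 and 61 reads. The knockout groups did not overlap and their means differed 6.83-fold, while the wild-type groups overlapped. The log2 difference with dexamethasone was -1.25 ± 0.21 in knockout and -0.33 ± 0.21 in wild type, and without the 3 libraries apart -1.41 ± 0.14 and -0.07 ± 0.15. With a pseudocount of 0.1 FPKM they were -2.43 and -0.61. The difference between these responses was -0.92 ± 0.29 with all libraries, -1.34 ± 0.21 without the 3 and -1.83 with the smaller pseudocount. Platelets also carry β3. Of 6 megakaryocyte and platelet markers, Gp1bb was listed at 0 in all 16 libraries, Itga2b was at most 0.347 FPKM, and only Pf4 reached 1 FPKM, with group means of 43.2 FPKM in wild-type vehicle, 29.8 in wild-type dexamethasone, 102 in knockout vehicle and 53.7 in knockout dexamethasone. Their part in the Itgb3 differences was not tested.

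Nfatc1, the transcription factor that drives the osteoclast programme (chromosome 18, 80606205 to 80713071), differed little between the groups. It ran from 10.2 to 11.7 FPKM in wild-type vehicle, 9.91 to 13.8 in wild-type dexamethasone, 10.9 to 12.4 in knockout vehicle and 9.86 to 11.4 in knockout dexamethasone. The 4 groups overlapped in every comparison, and the log2 differences between groups lay from -0.09 ± 0.09 (dexamethasone in knockout) to 0.06 ± 0.09 (knockout against wild type in vehicle). Its mean level per length over the 16 libraries, 11.2 FPKM, was close to that of Ctsk, 12.1 FPKM.

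**Figure D1:**
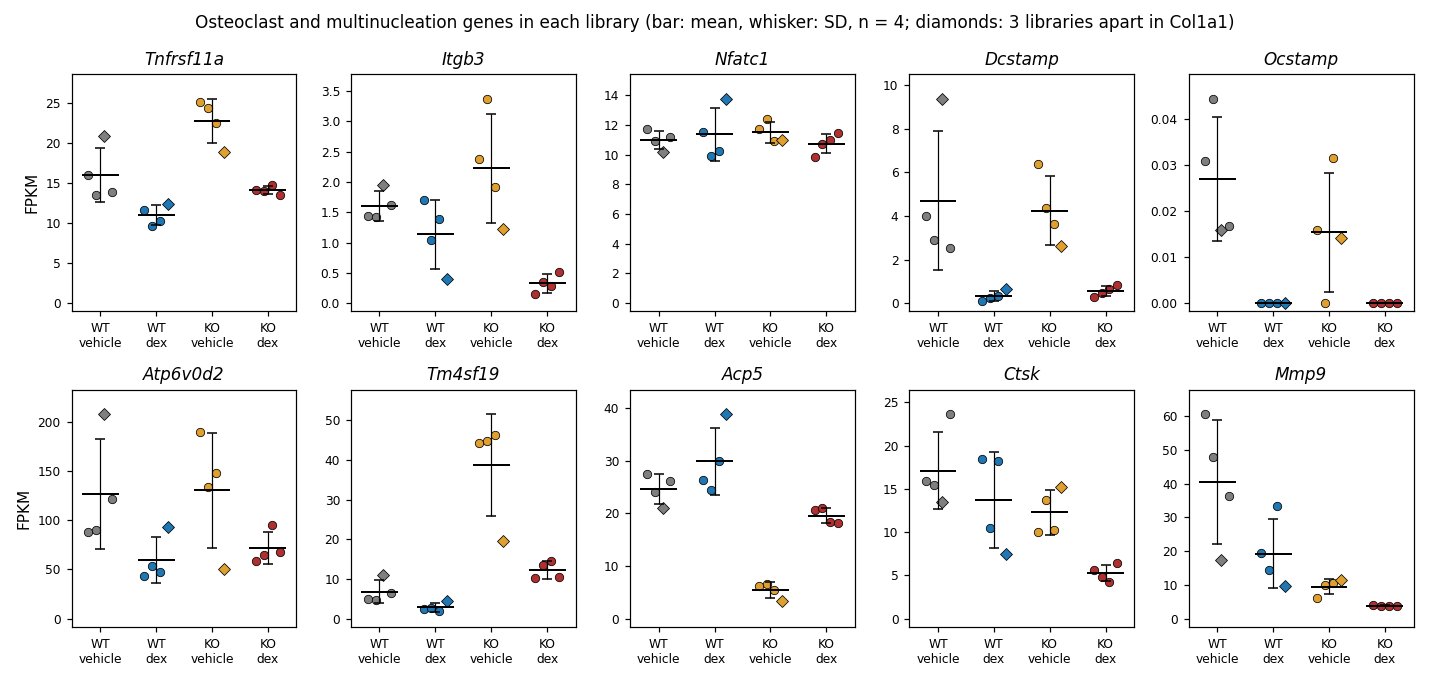
Level of each of the 10 genes in FPKM (linear axis, a separate scale per gene) in the 4 groups, with 1 point per library, diamonds for the 3 libraries apart in Col1a1, and a line with bars for the group mean ± SD (n = 4). Acp5 is low only in knockout vehicle (3.29 to 6.63 FPKM), Tm4sf19 is highest there (19.4 to 46.2 FPKM), and Dcstamp is under 1 FPKM in all 8 dexamethasone libraries.

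Among the fusion genes, Dcstamp and Tm4sf19 were lower in all dexamethasone libraries of each genotype than in its vehicle libraries. Dcstamp, the membrane protein without which osteoclast precursors stay mononuclear (chromosome 15, 39745930 to 39760938), was 4.02, 2.90, 9.39 and 2.53 FPKM in wild-type vehicle and 0.114, 0.231, 0.343 and 0.627 FPKM in wild-type dexamethasone. In knockout vehicle it was 6.38, 4.37, 3.65 and 2.60 FPKM, and in knockout dexamethasone 0.279, 0.470, 0.650 and 0.813 FPKM. Vehicle and dexamethasone did not overlap in either genotype, and their means stood 14.3-fold apart in wild type and 7.69-fold apart in knockout, with 5 to 43 reads in each dexamethasone library. The log2 difference was -1.98 ± 0.29 and -1.72 ± 0.29, and, since the pseudocount understates changes of a low gene, it came to -3.43 and -2.74 with a pseudocount of 0.1 FPKM. Between genotypes Dcstamp overlapped in both treatments; in vehicle the difference was -0.03 ± 0.29 with all libraries and 0.47 ± 0.18 without the 3 apart, so its sign depends on them.

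Ocstamp, the partner of Dcstamp in fusion (chromosome 2, 165393760 to 165400405, 438 kb from Mmp9), was close to undetected. It had 2, 3, 1 and 1 reads in wild-type vehicle, 1, 0, 2 and 1 in knockout vehicle and 0 in all 8 dexamethasone libraries. No library exceeded the floor of 3 reads that a count of 0 allows, so no fold is given and a difference was not detectable at this depth.

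Tm4sf19, a tetraspanin-like membrane protein linked to multinucleation (chromosome 16, 32400506 to 32408227), had the widest genotype difference of the set in vehicle with all libraries and no covariate. With the stromal covariate that of Acp5 was wider (-2.25 against 1.78). It was 4.93, 4.68, 10.9 and 6.38 FPKM in wild-type vehicle, against 44.3, 44.8, 46.2 and 19.4 FPKM in knockout vehicle. With dexamethasone it was 2.47, 2.69, 1.92 and 4.49 FPKM in wild type and 10.2, 13.6, 14.6 and 10.4 FPKM in knockout. The 4 groups lay in the order knockout vehicle, knockout dexamethasone, wild-type vehicle, wild-type dexamethasone by their means (38.7, 12.2, 6.73 and 2.89 FPKM), and only the middle pair, knockout dexamethasone and wild-type vehicle, overlapped, through wild-type vehicle library 3. The knockout stood 2.35 ± 0.29 (log2) above wild type in vehicle and 1.79 ± 0.29 under dexamethasone, and 2.87 ± 0.14 and 1.97 ± 0.13 without the 3 libraries apart. Without the 3, the genotypes did not overlap in stromal sum in either treatment. With the stromal markers as a covariate these were 1.78 and 1.08. At like stromal sums of 23.7 and 18.1 FPKM, wild-type vehicle library 3 had 10.9 FPKM of Tm4sf19 and knockout vehicle library 1 had 44.3. At sums of 433.5 and 306 FPKM, wild-type vehicle library 4 had 6.38 FPKM and knockout vehicle library 4 had 19.4. The part of stromal cells in the Tm4sf19 differences was not tested. Dexamethasone went with -0.96 ± 0.29 in wild type and -1.53 ± 0.29 in knockout.

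Atp6v0d2, a proton pump subunit that also takes part in fusion (chromosome 4, 19876841 to 19922605), was the most abundant of the 10 per length, with a mean of 97.1 FPKM over the 16 libraries. It was 88.5, 89.8, 208 and 121 FPKM in wild-type vehicle and 43.6, 53.3, 47.5 and 93.6 FPKM in wild-type dexamethasone. In knockout vehicle it was 189, 134, 148 and 50.2 FPKM, and in knockout dexamethasone 58.5, 64.3, 95.6 and 68.1 FPKM. The highest wild-type value in each treatment and the lowest knockout vehicle value came from the 3 libraries apart in Col1a1, and through them vehicle and dexamethasone overlapped in both genotypes. The log2 difference with dexamethasone was -1.06 ± 0.38 in wild type and -0.73 ± 0.38 in knockout with all libraries, and -1.03 ± 0.18 and -1.13 ± 0.17 without the 3. Between genotypes in vehicle it was -0.02 ± 0.38 with all libraries, 0.65 ± 0.18 without the 3 and -0.68 with the stromal covariate, so no direction is given.

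Of the effector genes, Ctsk and Mmp9 were lowest in knockout dexamethasone and Acp5 was lowest in knockout vehicle. Acp5 encodes TRAP, the enzyme by which osteoclasts are stained (chromosome 9, 22126727 to 22135711, minus strand; the window printed above is at the most downstream of its RefSeq starts). It stood at 27.6, 24.1, 20.96 and 26.1 FPKM in wild-type vehicle, 26.4, 24.4, 29.9 and 38.9 FPKM in wild-type dexamethasone and 20.6, 20.97, 18.4 and 18.2 FPKM in knockout dexamethasone, but at 6.23, 6.63, 5.53 and 3.29 FPKM in knockout vehicle. All 4 knockout vehicle libraries lay below the other 12 libraries of the series. The means of the vehicle groups, 24.7 ± 2.86 and 5.42 ± 1.49 FPKM (SD, n = 4), differed 4.55-fold. Dexamethasone went with a 3.60-fold higher mean in knockout, where the groups did not overlap, and with a log2 difference of 0.25 ± 0.17 in wild type, where they did. The knockout dexamethasone libraries remained below every wild-type dexamethasone library, by -0.57 ± 0.17 (log2).

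The difference between the responses of Acp5, knockout minus wild type, was 1.46 ± 0.24 (log2) with all libraries and 1.48 ± 0.12 without the 3 apart. It lay between 1.27 and 1.71 over all alternative settings. Reads were at most 2 per library on 6530413G14Rik, a transcript on the opposite strand that shares 137 exon bases with Acp5; the labels and notes do not say whether the counting used strand. Values at like stromal sums were as follows. Wild-type vehicle library 3, with a stromal sum of 23.7 FPKM, had 20.96 FPKM of Acp5, and knockout vehicle library 1, with 18.1 FPKM of stromal markers, had 6.23. At the other end, knockout vehicle library 4, with a stromal sum of 306 FPKM, had 3.29 FPKM, the lowest Acp5 value of the 16. The part of stromal cells in the Acp5 differences was not tested.

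Ctsk encodes the protease that cuts bone collagen (chromosome 3, 95499256 to 95509362; its window is printed above). It was 15.8, 15.4, 13.5 and 23.6 FPKM in wild-type vehicle, 18.4, 10.5, 18.3 and 7.51 FPKM in wild-type dexamethasone, 10.02, 13.7, 10.2 and 15.2 FPKM in knockout vehicle and 5.63, 4.76, 4.27 and 6.43 FPKM in knockout dexamethasone. Only the last group stood clear of the other 3, and its mean was 2.33-fold below knockout vehicle and 2.59-fold below wild-type dexamethasone. The log2 differences were -1.08 ± 0.25 for dexamethasone in knockout and -1.15 ± 0.25 for knockout against wild type under dexamethasone, the latter -0.71 with the stromal covariate. Fibroblasts also make cathepsin K: within wild-type dexamethasone the library with the lowest stromal sum (50.9 FPKM) had the lowest Ctsk (7.51 FPKM), and within knockout vehicle the one with the highest (306 FPKM) had the highest (15.2 FPKM). The part of stromal cells in the Ctsk differences was not tested.

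Mmp9, the gelatinase of osteoclasts, macrophages and neutrophils (chromosome 2, 164940780 to 164955850), was lower in knockout. It was 60.6, 47.9, 17.4 and 36.2 FPKM in wild-type vehicle and 19.5, 14.5, 33.5 and 9.61 FPKM in wild-type dexamethasone. In knockout vehicle it was 6.15, 9.89, 10.6 and 11.4 FPKM, and in knockout dexamethasone 4.18, 3.85, 3.61 and 3.79 FPKM, a narrow range below all other libraries. The genotypes did not overlap in either treatment, with means 4.26-fold apart in vehicle and 5.00-fold apart under dexamethasone. The log2 difference of knockout from wild type was -1.88 ± 0.36 in vehicle and -1.93 ± 0.36 under dexamethasone, and -2.32 ± 0.26 and -2.195 ± 0.25 without the 3 libraries apart. With dexamethasone it was -1.04 ± 0.36 in wild type, where the groups overlapped, and -1.09 ± 0.36 in knockout, where they did not.

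Within wild type, the library with the lowest stromal sum had the lowest Mmp9 of its group in vehicle (17.4 FPKM) and in dexamethasone (9.61 FPKM). In the other wild-type vehicle libraries, sums of 412, 415 and 433.5 FPKM went with 60.6, 47.9 and 36.2 FPKM of Mmp9. In the other wild-type dexamethasone libraries, sums of 836, 462 and 750 FPKM went with 19.5, 14.5 and 33.5 FPKM. Knockout vehicle library 4, with a stromal sum of 306 FPKM, had 11.4 FPKM, below every wild-type vehicle library, and wild-type vehicle library 3 stood above the 3 knockout vehicle libraries of low stromal sum. With the stromal score as a covariate the difference under dexamethasone was -1.30, and the part of stromal cells was not tested. Neutrophil markers were near 0: the 8 summed to between 0.53 and 4.68 FPKM per library, mostly S100a8, and Ly6g was listed at 0 in all 16 libraries.

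**Figure D2:**
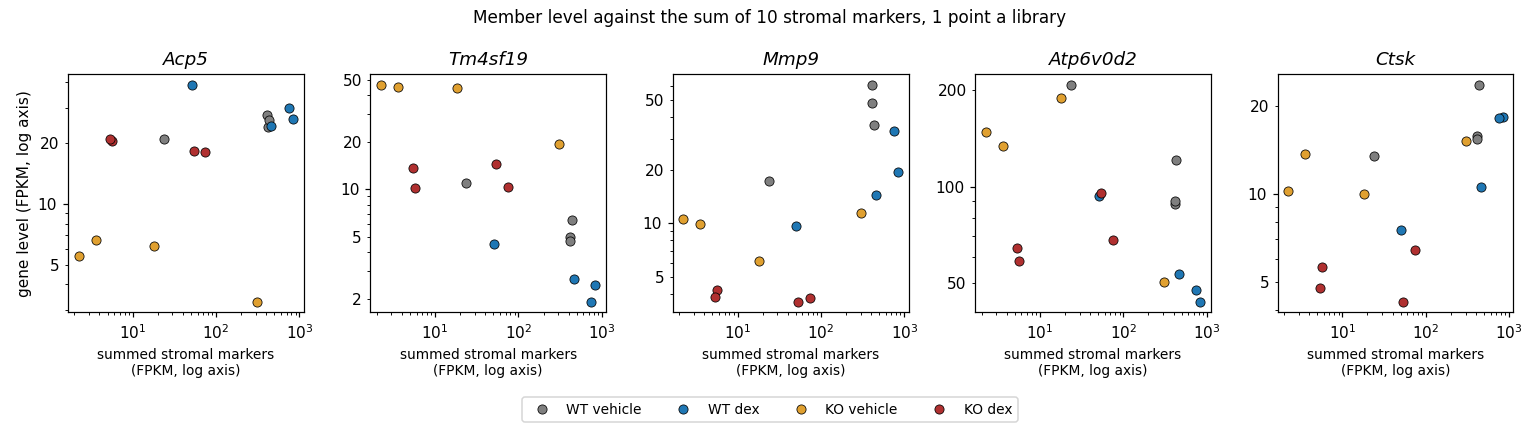
FPKM of 5 of the genes (log axis) against the sum of 10 stromal markers in FPKM (log axis), with 1 point per library coloured by group. The knockout vehicle libraries lie lowest for Acp5 at both low and high stromal sums, and within wild-type dexamethasone the lowest Ctsk (7.51 FPKM) and Mmp9 (9.61 FPKM) values are those of the library with the lowest sum (50.9 FPKM).

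Side by side, the 10 genes fall into different patterns rather than 1. Counted over the 9 in the model, 5 were past an adjusted p of 0.05 with dexamethasone in wild type, all lower, where 30.1% of 11654 genes were called (11.9% higher, 18.2% lower), and 7 in knockout, 6 lower and Acp5 higher, where 39.1% were called (24.1% lower, the rest higher). Between genotypes 4 were past it in vehicle, Tm4sf19 and Tnfrsf11a higher and Acp5 and Mmp9 lower in knockout, with 4.68% of all genes called (3.37% higher, 1.3% lower). Under dexamethasone there were 5, Tm4sf19 higher and Acp5, Ctsk, Itgb3 and Mmp9 lower, with 26.7% called (14.3% higher, 12.4% lower). For the difference between the responses there was 1, Acp5, higher, with 0.129% called (0.0601% higher, 0.0686% lower). Since the genes were chosen with these contrasts in view, nothing is read from these counts. Without the 3 libraries apart the vehicle count was 7 with 34% of all genes called, and that for the difference between the responses was 3 (Acp5 among them) with 6.22%. The Acp5 call for the difference between the responses was lost in 13 of the 16 fits that left out 1 library. In those 13 fits 2 to 7 of the 11654 genes were called, against 15 with all libraries.

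**Figure D3:**
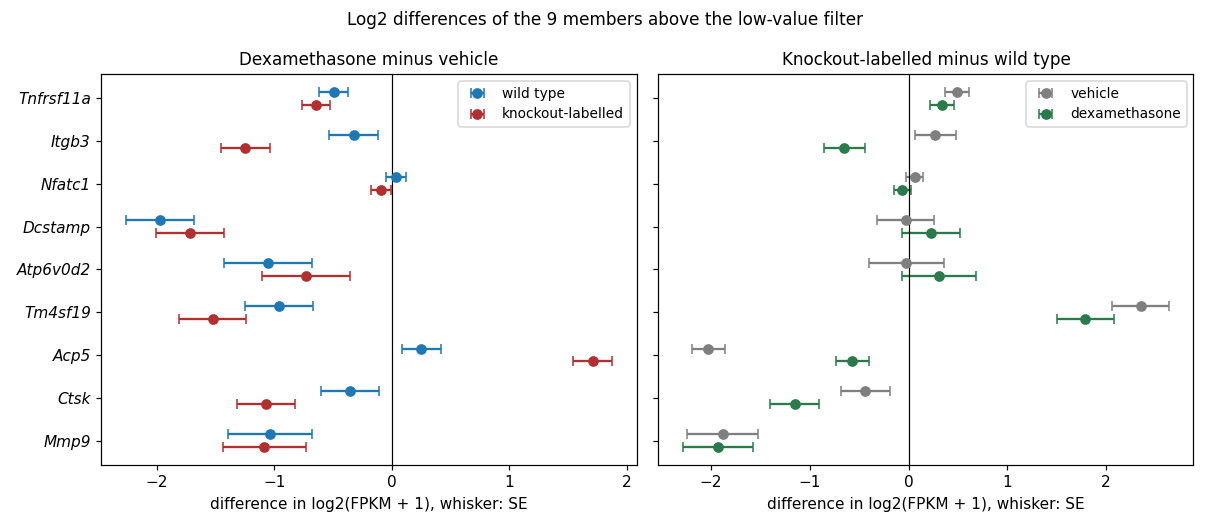
Log2 difference of the 9 genes in the model on the log2(FPKM + 1) scale, for dexamethasone in each genotype (left) and for knockout against wild type in each treatment (right), with bars of ± 1 SE from the model across all genes. Dcstamp, Tm4sf19 and Tnfrsf11a lie below 0 with dexamethasone in both genotypes, Tm4sf19 (2.35) and Acp5 (-2.03) mark the ends between genotypes in vehicle, and Nfatc1 lies near 0 throughout.

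By whether all 4 libraries of a group lay on one side of all 4 of the other, 4 of the 10 genes were lower with dexamethasone in wild type (27.3% of all tested genes separated, 10.8% higher and 16.5% lower), and 6 lower and 1 higher in knockout (40.5%, 16.6% higher and 23.9% lower). Ocstamp is among the 4 on reads at or under the floor. Between genotypes 1 was higher and 2 lower in vehicle (10.6%, 7.66% higher and 2.97% lower), and 2 higher and 3 lower under dexamethasone (26.4%, 16.3% higher and 10.2% lower). The comparisons share groups, so the counts are not independent of each other.

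The other genes of the pathway were taken from 5 lists of 63 genes in all that leave out the 10, of which 55 were measured well enough to test. With dexamethasone many of them fell in both genotypes. In wild type 26 of the 55 fell and 7 rose (limma, adjusted p under 0.05), beside 18.2% of all genes lower and 11.9% higher, with a median log2 difference of -0.31 against -0.02 over all genes tested. In knockout 29 fell and 9 rose, beside 24.1% of all genes lower among 39.1% called, with a median of -0.49 against -0.05 over all genes. The lists were chosen with earlier results of these data known, so these counts and medians are descriptions and support nothing. No comparison was made with other lists. The sum of the 8 macrophage markers was 12800 to 13750 FPKM in wild-type vehicle. It was 9589, 10140, 10050 and 12600 FPKM in wild-type dexamethasone libraries 1 to 4. In knockout it was 13200 to 15450 FPKM in vehicle and 12810 to 15350 FPKM under dexamethasone. The part of macrophage content in these falls was not tested.

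Among receptors and proximal signalling, 5 of 12 tested genes fell and none rose in wild type, and 4 fell and 1 rose in knockout. Trem2, a lipid receptor that signals through the adaptor Tyrobp, fell from 270 ± 20.9 to 100 ± 21.7 FPKM in wild type (SD, n = 4; limma adjusted p = 7.48e-06) and by 1.20 ± 0.15 (log2, SE) in knockout. Fcer1g, the adaptor shared by Oscar and Fc receptors, fell in wild type from 656 ± 54.5 FPKM to 327 ± 53.0 (limma adjusted p = 3.05e-06) and in knockout from 857 ± 40.0 FPKM to 440 ± 21.1. Csf1r, the receptor of Csf1, rose in knockout from 608 ± 104 to 756 ± 55.8 FPKM (limma adjusted p = 0.0473) and did not pass the threshold in wild type (590.1 and 700.4 FPKM). The ligands were scarce: RANKL (Tnfsf11) was at most 0.456 FPKM and its decoy Tnfrsf11b at most 1.31 FPKM, and neither passed the filter. Tnfsf11, Tnfrsf11b and Csf1 were each lowest in wild-type vehicle and in wild-type dexamethasone in the library of low stromal sum (Csf1 4.42 and 6.38 FPKM, against 35.0 to 38.7 and 46.4 to 66.7 FPKM in the others).

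Of 14 transcription factors that promote osteoclasts, 8 fell and 2 rose with dexamethasone in wild type, and 10 fell and 1 rose in knockout. Fos, the AP-1 subunit without which osteoclasts do not form, fell by 0.93 ± 0.18 in wild type (limma adjusted p = 0.00159) and by 1.23 ± 0.18 in knockout (limma adjusted p = 0.000122). Prdm1 (Blimp-1), a repressor that silences osteoclast inhibitors, fell in wild type from 5.62 ± 1.07 FPKM to 1.10 ± 0.489, and in knockout from 4.90 ± 0.667 FPKM to 1.75 ± 0.243 (SD, n = 4). Mitf fell by 1.03 ± 0.16 in wild type and by 0.76 ± 0.16 in knockout. Jdp2, an AP-1 partner, rose in wild type, from 6.70 ± 3.06 FPKM to 46.4 ± 5.12 (limma adjusted p = 1.94e-05), and in knockout, from 3.79 ± 2.202 FPKM to 36.7 ± 5.29 (limma adjusted p = 4.33e-06). Of 5 factors that restrain osteoclasts, 2 fell and 1 rose in each genotype. Among them Bcl6 fell by 0.67 ± 0.10 in wild type and 1.18 ± 0.10 in knockout, and Irf8 did not pass the threshold (-0.20 ± 0.11 and 0.01 ± 0.11).

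Of 12 genes of acid secretion, adhesion and matrix resorption, 7 fell and none rose in wild type, and 9 fell and 1 rose in knockout. Tcirg1, the a3 subunit of the proton pump, fell in wild type from 255 ± 12.6 FPKM to 143 ± 20.8 (limma adjusted p = 0.000403) and in knockout from 243 ± 52.7 FPKM to 124 ± 10.2 (limma adjusted p = 0.000108). The chloride channel Clcn7 fell by 0.30 ± 0.11 and 0.50 ± 0.11, and the kinase Src by 1.10 ± 0.25 in wild type and 1.29 ± 0.25 in knockout. The fusion list split: Cd9 (a tetraspanin) fell by 1.89 ± 0.26 and 2.48 ± 0.26 and Sirpa (the receptor of Cd47) by 1.21 ± 0.11 and 1.24 ± 0.11, while the tetraspanin Cd81 rose by 0.81 ± 0.11 and 0.94 ± 0.11. In that list 4 fell and 4 rose in wild type, and 4 fell and 5 rose in knockout.

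**Figure D4:**
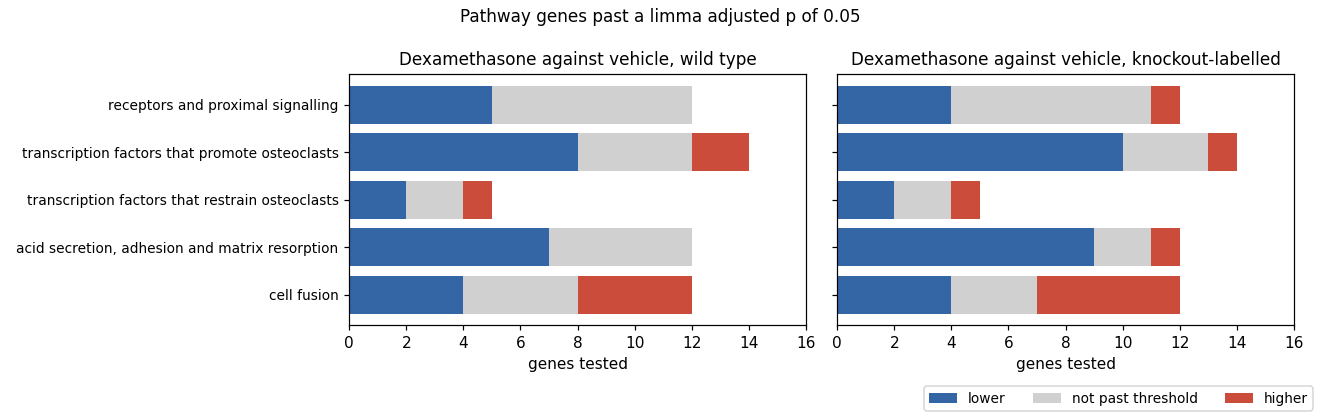
Number of tested genes in each of the 5 pathway lists that were lower, higher or not past a limma adjusted p of 0.05 with dexamethasone, in wild type (left) and knockout (right). Lower calls outnumber higher ones in 4 lists, and in the fusion list they are 4 against 4 and 4 against 5.

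Between genotypes in vehicle few pathway genes passed the test. Fcer1g was higher in knockout by 0.39 ± 0.10 (limma adjusted p = 0.0349) and Tspan13 lower by 0.85 ± 0.19 (limma adjusted p = 0.0213), which makes 2 of 55, or 3.64%, beside 4.68% of all genes. This count hangs on single libraries, and so does that of all 11654 genes, which was 545 and is given in brackets below. The pathway count was 10 without wild-type vehicle library 3 (1623), 12 without knockout vehicle library 4 (1285) and 6 without wild-type dexamethasone library 4 (838). Without wild-type vehicle library 4 (303) or knockout vehicle library 3 (291) it was 0. It was 1 without wild-type vehicle library 1 (278) or 2 (286), knockout vehicle library 1 (333) or 2 (347), or knockout dexamethasone library 2 (434). Without the 3 libraries apart (3958) it was 32, with 27 higher and 5 lower. Under dexamethasone 10 were higher and 8 lower in knockout, which makes 32.7% of the 55 beside 26.7% of all genes (14.3% higher, 12.4% lower). Tyrobp was higher by 0.53 ± 0.11 (limma adjusted p = 0.00589) and Snx10 by 0.64 ± 0.16, and Jun was lower by 0.65 ± 0.11 (limma adjusted p = 0.00164), Myc by 1.31 ± 0.35 and Mmp14 by 2.04 ± 0.67. Within wild-type dexamethasone, Mmp14 was lowest in library 4, that of the lowest stromal sum (4.19 FPKM against 25.5 to 34.9 in the others). Across groups it did not always follow the sum. Knockout vehicle library 1, with a sum of 18.1 FPKM, had 12.9 FPKM of Mmp14, and knockout dexamethasone library 4, with 74.4, had 8.04. The part of stromal cells was not tested.

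The count of 18 under dexamethasone was 7 and 8 without wild-type dexamethasone library 1 or 3, with 1517 and 1600 of all genes called against 3114. Without knockout dexamethasone library 1 or 2 it was 6 and 8 (1708 and 1815 of all genes). It was 35 without the 3 libraries apart (5158 of all genes) and 8, all lower, with the stromal covariate (1027 of all genes). For the difference between the responses limma called 0 of the 55 at the adjusted threshold, 7 at an unadjusted p under 0.05, and limma-voom on the recovered reads also called 0. Without wild-type dexamethasone library 4 it was 3, and without the 3 libraries apart 11, with 330 and 725 of all genes called against 15.

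The genes most like the 3 most abundant of the 10 were sought by Pearson's r of log2(FPKM + 1) over the 16 libraries, which share the 4 groups, so the values are descriptions. Atp6v0d2 ran closest to Il7r (0.959), the interleukin-7 receptor chain, and Slamf7 (0.956). Acp5 ran closest to Slc40a1 (0.933), the iron exporter ferroportin, and Mturn (0.907). Mmp9 ran closest to Ptgfrn (0.925) and Cgnl1 (0.913), both low genes with means of 2.30 and 1.24 FPKM.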

How the data were processed

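Values are FPKM, deposited by the authors as a separate table for every library, each listing 54532 Ensembl identifiers. The submitters' processing notes list Bowtie2 2.2.3, TopHat2 2.0.12, HTSeq 0.6.1, DESeq2, GRCm38 and mm10, without roles. No source used here gives the strand setting. Names and exon lengths came from GENCODE M21. Dividing each value by what 1 read is worth at that length gave whole reads, within 0.05 reads, for 96.3% to 96.7% of the positive values of a library. The total behind the FPKM values of a library was not its recovered read number. It was 16568784 against 20490973 reads in knockout vehicle library 2, and 19544025 against 19191142 in wild-type dexamethasone library 2. The 24 pairs of libraries within a group all differed beyond sampling noise.

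FPKM is not a count, so log2(FPKM + 1) went into a limma 3.58.1 model (R 4.3.3; 4 group means, moderated variance with intensity trend) over 11654 genes, namely those reaching 1 FPKM in 4 or more of the 16 libraries. For each of 5 comparisons, two-sided p-values were Benjamini-Hochberg adjusted over all tested genes, and 0.05 was the threshold. The fit was tested on simulated data. Python 3.11.15 was used for the rest. The 10 genes, the pathway lists and the marker lists were chosen with earlier results of these data known. Named besides the 10 genes were the first pair of genes of each pathway and marker list where used, up to 3 called genes of each list and comparison with the smallest adjusted p, and the 2 genes most like each of the 3 most abundant of the 10. Tnfsf11, Tnfrsf11b, Csf1, Oscar, Mmp14, Pf4, Ly6g and Gp1bb were named for their role or their level, after their values were seen. Alternatives covered the pseudocount, the filter, scaling, array weights, the groups in the fit, the replicate number as a block, voom on the recovered reads and leaving out each library. The fits without the 3 libraries apart in Col1a1 and with a stromal score (mean log2(FPKM + 1) of the 10 stromal markers) as covariate were chosen after seeing the data. In the fit without the 3, every wild-type library had a higher stromal sum than every knockout library. Levels are compared between genes per length only. For 1 of the pathway genes counted in the lists, the name and values are not reported here.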

Additional observations from a re-analysis of the deposited data

Results flagged for a closer look

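The response of Acp5 to dexamethasone differed between the genotypes by a test of the difference itself, which was 1.46 (log2, knockout minus wild type). The gene was chosen with this difference in view, so the test adds nothing to its description. In knockout vehicle the lowest Tm4sf19 library, library 4 at 19.4 FPKM, stood far from the other 3, which lay between 44.3 and 46.2 FPKM. It is also the knockout vehicle library with the highest stromal sum, 306 FPKM. Of 40 groups of 4 libraries examined for a library apart, this was the only one, and chance flags about 1 in 20 such groups.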

How the results depend on the processing

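Over 1151 differences of single genes recomputed under the alternatives, 1112 moved by less than the spread, 39 moved by more, and none that was past the threshold changed sign. Counts are of the 9 genes in the model and of the 55 pathway genes, with 2 exceptions. With no filter 10 and 63 were tested, of 28196 genes, and with a filter of 5 FPKM 7 and 52, of 7264. A number in brackets after a setting is the count called over all genes tested in it. The cause of each change was not tested. With dexamethasone in wild type 3 of the 10 genes (reported 5, of all genes 3508) were called with no filter (3281) and with only the groups compared (2504). The replicate block (3065) and voom (3600) also gave 3. Between genotypes in vehicle 7 (reported 4, of all genes 545) were called with array weights (4840) and without the 3 libraries apart (3958). Under dexamethasone 3 (reported 5, of all genes 3114) were called with no filter (2612), the replicate block (2203) and the stromal covariate (1027). For the difference between the responses 0 (reported 1, of all genes 15) were called with no filter (6) and the replicate block (1). Array weights (1391) and the fit without the 3 (725) gave 3. Of the pathway genes, 0 (reported 2) were called in vehicle with no filter (396), only the groups compared (244) and the replicate block (377). A filter of 5 FPKM (454) and the stromal covariate (378) gave 1, and array weights (4840) and the fit without the 3 (3958) gave 32. Under dexamethasone it was 37 with array weights (6388), 35 without the 3 (5158) and 8 with the covariate (1027), where 18 was reported. For the difference between the responses it was 12 with array weights (1391) and 11 without the 3 (725), where 0 was reported.

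Leaving out 1 library at a time, the 9 genes gave 2 to 5 calls with dexamethasone in wild type, 6 to 7 in knockout, 3 to 4 between genotypes in vehicle, 3 to 6 under dexamethasone and 0 to 2 for the difference between the responses, and the pathway genes 29 to 38, 35 to 41, 0 to 12, 6 to 27 and 0 to 3. The same fits called 2898 to 3656, 3761 to 4835, 278 to 1623, 1517 to 4070 and 2 to 330 of all 11654 genes. Over all genes the vehicle count between genotypes was 545, against 4840 with array weights, 3958 without the 3 and 244 with only the groups compared. Voom was scaled to the recovered reads of each library, from which the totals behind the FPKM values differ, so the 2 fits are not scaled alike. With dexamethasone in knockout, voom put 3281 genes higher and 1726 lower, where the FPKM fit put 1753 higher and 2809 lower. The median of all genes was 0.12 with voom against -0.05 with the FPKM fit. In wild type voom gave 2005 and 1595 against 1386 and 2122 with the FPKM fit. Acp5 (higher in knockout), Dcstamp, Tm4sf19 and Tnfrsf11a (lower in both genotypes) had the same sign under both.

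No pairing by replicate number was assumed. Same-numbered libraries of the compared groups correlated between -0.685 and 0.732 in their deviations. Such correlations cannot show whether equal numbers share an animal or a batch. The replicate block is given here only. It called 3065, 4127, 377, 2203 and 1 genes in the 5 comparisons, against 3508, 4562, 545, 3114 and 15. Depth limits Ocstamp, and a low read count limits Dcstamp and Itgb3 under dexamethasone.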
